A study of Mus musculus with 2 samples.

Results

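Histone genes fall into clustered, replication-dependent genes and scattered variant genes, and their UMIs were compared between WT and Pac1-/- lung group 2 innate lymphoid cells (ILC2s). A UMI is a molecular tag that marks 1 captured transcript. The gene symbols starting with Hist1h, Hist2h, Hist3h, Hist4h, H2af, H3f3 or H1f numbered 83, of the 32285 genes measured. Of these, 61 had at least 20 UMIs over both libraries, among 13926 genes of all kinds that did. One of them, H3f3aos, is an RNA on the strand opposite H3f3a, which left 60 genes that encode a histone. The other 22 symbols stayed below 20 UMIs, 8 of them at 0. Just inside the limit stood Hist1h2ao with 21 UMIs and Hist1h2bp with 22, and just outside it Hist1h4b with 17 and Hist1h2bl with 15.

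Each genotype was 1 droplet-based single-cell library of ILC2s sorted from the lungs of mice on a C57BL/6J background. The label of one group was WT and that of the other Pac1-KO, a line deficient in Pac1, a phosphatase whose gene symbol is Dusp2. Each library pooled the lungs of 4 to 5 mice, mice were 6 to 8 weeks old at the time of experiments, and the labels name no treatment. With 1 library per genotype there is no replicate, so the genotypes could not be tested against each other, and the 95% intervals given below cover counting error alone. Cell barcodes entered the analysis with 500 or more detected genes and a mitochondrial share of UMIs up to 10%, which kept 8394 of 10866 barcodes in WT and 7087 of 9495 in Pac1-/-. The study kept fewer cells of each library after its own filter.

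The retained barcodes held 54579034 UMIs in WT and 58338886 in Pac1-/-, with medians of 4186.5 and 5577 UMIs per barcode. Of the barcode sequences 29 occurred in both libraries, 15 of them retained in both. Dusp2 had 1419 UMIs in WT and 5 in Pac1-/-, which matches the labels. Levels are given as CPM (counts per 1000000), the UMIs of a gene scaled to the total of its library. All 11 ILC2 markers, Gata3 and Il1rl1 among them, were detected, with summed levels of 7635 CPM in WT and 6725 CPM in Pac1-/-. Markers of other cells were also present and moved between the libraries. The 4 T cell genes summed to 142 CPM in WT and 105 CPM in Pac1-/-, most of it from Cd3g, and the 2 erythroid genes to 61.3 and 204 CPM. The 3 myeloid genes summed to 2.36 and 7.06 CPM and the 3 B cell genes to 6.17 and 11.0 CPM. The 2 mast cell genes summed to 12.8 and 26.3 CPM, the 2 ILC3 genes to 6.30 and 11.9 CPM and the 2 epithelial genes to 37.7 and 58.1 CPM, with Sftpc at 15 and 675 UMIs. The part of such cells in the results below was not tested. The ratios were also recomputed without the 2952 WT and 1984 Pac1-/- barcodes with a Cd3e, Cd3d or Cd3g UMI. That filter cannot separate T cells from ILC2s. Of the 24 histone genes and 16 pathway and cell-cycle list genes past the fold in the results below, none then changed direction. Hist4h4, Hist2h3c1, Rrm2, Kif11 and Hmmr no longer met the rule.

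Histones package DNA into nucleosomes, built from the core histones H2A, H2B, H3 and H4, with the linker histone H1 on the DNA between them. The clustered genes supply the bulk of histone protein while DNA is copied in S phase. Their transcripts usually end in a short hairpin, the stem-loop bound by the protein SLBP, in place of a poly(A) tail. Variant genes lie elsewhere in the genome, give polyadenylated transcripts throughout the cell cycle and replace the S-phase histones at particular sites. In cells that have stopped dividing, some clustered genes are known to be read past the stem-loop into polyadenylated transcripts. The library kit primes from poly(A), so the levels here are those of captured transcripts and are not the amounts of all histone mRNA. Because only transcript ends are counted, no length correction was made.

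The stem-loop was searched in the annotated transcripts to show how alike the replication-dependent ends are where they are annotated. A hairpin with a stem of 6 base pairs and a loop of 4 bases was found in the annotated transcripts of 38 of the 50 clustered members. Among the 10 members outside the clusters it was found in 1, H2afx. The following are written 5′ to 3′ on the transcribed strand with T for U, as in the GENCODE vM21 transcripts on GRCm38, with the 16 bases of the hairpin in capitals. They show the form found in 22 members (Hist2h2aa1, Hist1h1c), the form of 7 H4 genes (Hist1h4h), a form of 4 H2B and H3 genes (Hist1h3c), and 3 forms found in 1 member each.
Hist2h2aa1: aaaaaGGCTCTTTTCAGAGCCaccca
Hist1h1c: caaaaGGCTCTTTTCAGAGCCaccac
Hist1h4h: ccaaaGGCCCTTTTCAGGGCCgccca
Hist1h3c: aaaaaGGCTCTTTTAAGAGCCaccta
Hist1h4a: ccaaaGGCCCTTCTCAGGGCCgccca
Hist1h4j: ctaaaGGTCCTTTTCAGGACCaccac
H2afx: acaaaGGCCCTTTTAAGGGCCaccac

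What follows the hairpin differed far more than the hairpin itself. The annotated transcript of Hist2h2aa1 ended 35 bases after the stem-loop, that of Hist1h4h 46 bases after it, and that of Hist1h3c 74 bases after it. By contrast the longest transcript of Hist1h1c ran on for 840 bases, that of H2afx for 822 bases and that of Hist1h1d for 4884 bases. No stem-loop of this form was found in the annotated transcripts of 12 clustered members, among them Hist1h2bc, Hist1h1a, Hist1h1b and Hist2h2ab. Several of the 12 have short annotations, such as Hist1h2bn with 381 bases and Hist1h2ak with 393 bases. A stem-loop past the annotated end could not be found, so these genes are not shown to lack one.

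The histone genes took 0.50% of all UMIs in WT and 0.580% in Pac1-/-. Of these histone UMIs, the 10 genes outside the clusters gave 89.2% in WT and 91.6% in Pac1-/-. A single gene, H3f3b, gave 61.2% and 57.7%. The 50 clustered genes together stood at 541 CPM in WT and 486 CPM in Pac1-/-, against 4455 and 5317 CPM for the 10 scattered genes.

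Ratios between the libraries are given as log2 of Pac1-/- over WT, relative to the median gene. That median gene was 0.18 higher in Pac1-/- on the log2 scale (1.14-fold), and this shift was subtracted from every ratio below. A gene was counted as higher or lower when its ratio was past 1.5-fold and its counting interval lay wholly on that side of the median gene. By that rule, which is used throughout, 24 of the 60 histone genes differed, 13 higher and 11 lower in Pac1-/- (40.0%). Over all 13926 genes the share was 20.7%, with 8.0% higher and 12.7% lower. The limit of 20 UMIs was set on the sum of both libraries, so a gene could pass it through 1 library. Hist1h4m, Hist1h2ak, Hist1h2an and Hist1h3i, all higher, stayed below 20 UMIs in WT and passed through Pac1-/-. Hist1h2bp, which was lower, stayed below 20 UMIs in each library. All 24 were clustered core genes, so that 24 of 45 core members were past the fold (53.3%), but none of the 5 clustered H1 genes and none of the 10 scattered genes was. The calls depend on the subtraction of the shift. As counted, before it, 24 of the 60 were higher and 10 lower, against 16% and 8.4% of all genes. The clustered core then gave 19 higher and 10 lower, since Hist1h4a was no longer past the fold, and 5 of the 10 scattered genes (H3f3a, H2afz, H2afv, H2afx and H2afy2) were higher. The median size of the ratio, without sign, was 0.55 over the 60 histone genes and 0.32 over all genes. With 1 library of each genotype, genotype and library cannot be told apart.

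**Figure D1:**
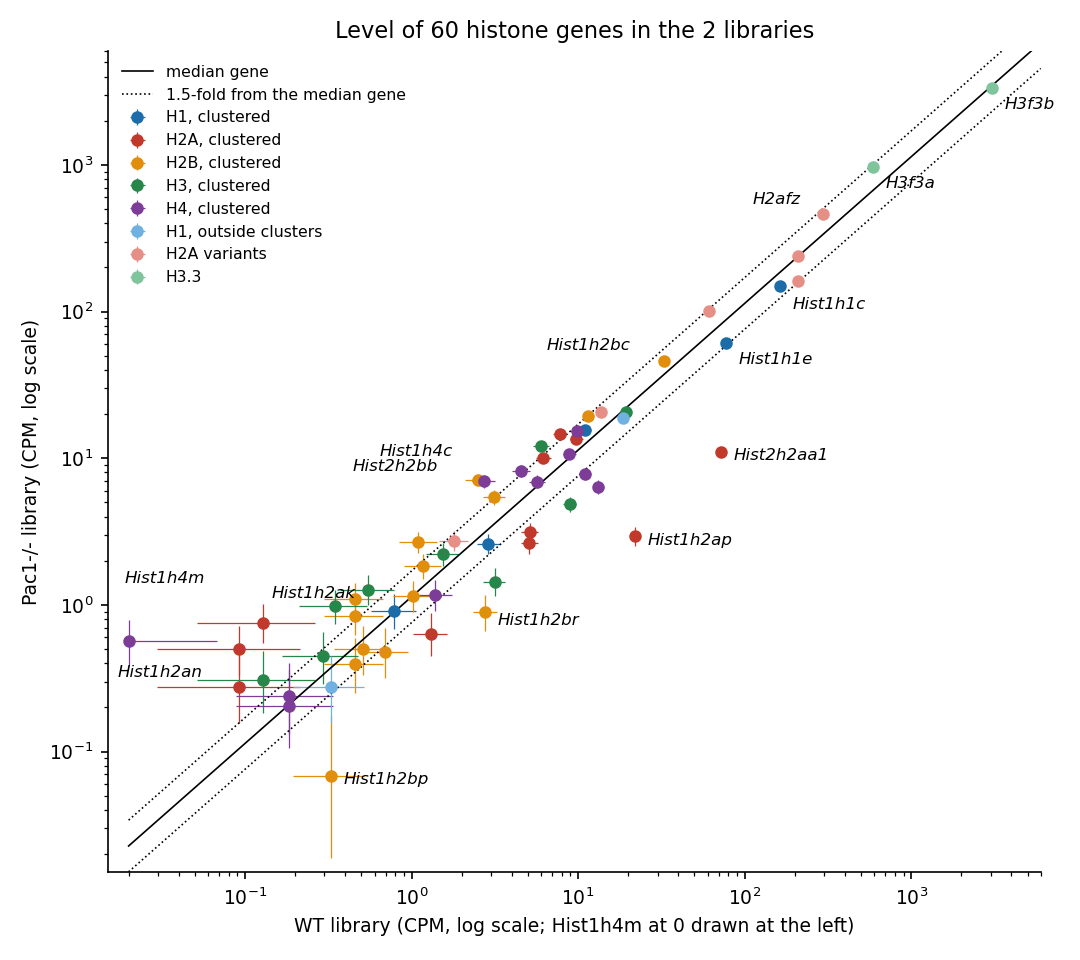
Level of each of the 60 histone genes in the WT library (horizontal, CPM on a log scale) and in the Pac1-/- library (vertical, CPM on a log scale). Points are genes colored by class, bars are exact Poisson 95% intervals, the solid line is the median gene and the dotted lines lie 1.5-fold from it. The scattered genes stay between the dotted lines, and Hist2h2aa1 and Hist1h2ap lie furthest below them among the genes above 10 CPM in WT.

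H3.3 is the variant of H3 that is laid down independently of DNA replication, and H3f3a and H3f3b encode the same protein. H3f3b was the most abundant histone gene of both libraries, at 3057 CPM in WT and 3349 CPM in Pac1-/-, and stood at the median gene with a log2 ratio of -0.05 [-0.06, -0.04]. H3f3a was at 587 CPM in WT and 962 CPM in Pac1-/-, a ratio of 0.53 [0.51, 0.55], just within 1.5-fold. H3f3b accordingly gave 83.9% of the H3.3 UMIs in WT and 77.7% in Pac1-/-. The same direction was seen in the share of barcodes. Each barcode was reduced at random to 2000 UMIs, and 914 WT and 617 Pac1-/- barcodes below that depth were set aside. H3f3a then had a UMI in 67.5% of the WT barcodes and in 83.1% of those of Pac1-/-. Before this reduction the shares were 85.7% and 94.3%. H3f3b was found in 92.0% and 93.5% of the reduced barcodes. The opposite-strand RNA H3f3aos had 101 and 115 UMIs, and the H3f3a and H3f3aos annotations overlap.

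The 6 H2A variants summed to 792 CPM in WT and 986 CPM in Pac1-/-, a log2 ratio of 0.13 [0.11, 0.15], and 5 of the 6 lay above the median gene. H2afz and H2afv encode H2A.Z, which marks the nucleosomes beside gene starts. H2afz was at 296 CPM in WT and 459 CPM in Pac1-/- (0.45 [0.42, 0.48]), and H2afv at 61.4 and 101 CPM (0.54 [0.47, 0.60]). In WT the levels of H2afj (210 CPM) and H2afy (209 CPM) could not be separated by their counting intervals, while in Pac1-/- H2afy was at 240 CPM and H2afj at 162 CPM. H2afj, which encodes a mammalian H2A variant known to accumulate in senescent fibroblasts, was the variant below the median gene, with a ratio of -0.56 [-0.60, -0.52]. H2afy, the gene of macroH2A1, which is tied to silent chromatin, had a ratio of 0.02 [-0.02, 0.05].

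The remaining scattered genes were less abundant. H2afx, whose protein is phosphorylated around DNA breaks, was at 13.8 CPM in WT and 20.7 CPM in Pac1-/- (0.40 [0.27, 0.53]). H2afy2, the second macroH2A gene, was at 1.80 and 2.73 CPM (0.42 [0.05, 0.80]). H1f0, a linker histone of resting and differentiated cells, was at 18.6 and 18.8 CPM (-0.17 [-0.29, -0.04]). H1fx had 18 UMIs in WT and 16 in Pac1-/-, too few to place it on either side of the median gene. At 2000 UMIs per barcode, H2afz had a UMI in 37.0% of the WT barcodes and in 48.9% of those of Pac1-/-, H2afv in 11.4% and 17.7%, and H2afj in 33.9% and 27.0%. At equal depth such shares follow the levels, and a UMI does not show that the cell expressed the gene. Barcodes under 500 genes held H2afz at 296 CPM in WT and 388 CPM in Pac1-/-.

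Among the linker histones of the Hist1 cluster, Hist1h1c led in both libraries. It was at 163 CPM in WT and 149 CPM in Pac1-/- (-0.31 [-0.36, -0.27]). Hist1h1e followed with 77.2 and 61.1 CPM (-0.52 [-0.59, -0.46]), the lowest ratio of the 5. Hist1h1d was at 11.1 and 15.6 CPM and lay above the median gene (0.31 [0.16, 0.47]). Hist1h1a, at 2.89 and 2.61 CPM, had a ratio of -0.34 [-0.67, -0.01], and Hist1h1b, at 0.788 and 0.908 CPM, one of 0.02 [-0.59, 0.64]. The class as a whole stood at 255 CPM in WT and 229 CPM in Pac1-/- (-0.34 [-0.37, -0.30]), with 3 genes below the median gene and 2 above. The levels of these 5 genes were ranked alike in both libraries, and no neighbors in that order had overlapping intervals. Hist1h1e shares its end with another member: all of the 50-base windows at its 3′ end also lie in the transcript of Hist1h2be, which is annotated to start inside the 3′ end of Hist1h1e on the same strand and to run on downstream. Reads of that stretch cannot be given to 1 gene by sequence.

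Clustered H2A was the class with the largest shift in its summed level, from 130 CPM in WT to 60.2 CPM in Pac1-/- (-1.30 [-1.35, -1.24]). This sum was set by Hist2h2aa1 and Hist1h2ap, and most of the other members did not follow. Hist2h2aa1 (ENSMUSG00000064220) lies on the plus strand at chr3:96245497-96246082. It had 3951 UMIs in WT and 646 in Pac1-/-, which is 72.4 and 11.1 CPM and a ratio of -2.89 [-3.01, -2.77]. Its ratio was number 28 of 13926, counted from the lowest. It alone gave 55.7% of the class in WT and 18.4% in Pac1-/-. At 2000 UMIs per barcode it had a UMI in 12.7% of the WT barcodes and in 2.30% of those of Pac1-/-, against 29.4% and 7.94% at full depth, and no barcode held more than 17 of its UMIs. Hist1h2ap, on the minus strand at chr13:21833026-21833507, had 1203 UMIs in WT and 171 in Pac1-/-, or 22.0 and 2.93 CPM (-3.09 [-3.33, -2.86]).

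Of the 11 clustered H2A genes 3 were higher and 5 lower in Pac1-/-, beside 8.0% and 12.7% of all genes. The median ratio of the 11 was 0.29, opposite in sign to the sum. Hist1h2ac, the third most abundant over both libraries together, was at 9.77 and 13.5 CPM (0.29 [0.13, 0.45]). Hist3h2a was higher, at 7.81 CPM in WT and 14.7 CPM in Pac1-/- (0.73 [0.56, 0.90]), where it was the most abundant of the 11. Hist1h2ak went from 7 UMIs to 44 (2.37 [1.21, 3.77]) and Hist1h2an from 5 to 29 (2.26 [0.87, 3.98]). Lower genes besides the 2 above were Hist1h2ae, from 5.13 to 3.14 CPM (-0.89), Hist2h2ab, from 5.09 to 2.62 CPM (-1.14), and Hist1h2ad, from 1.30 to 0.634 CPM (-1.22). Hist3h2a (0.50 [0.17, 0.82]) and Hist1h2ae (-0.58) were within the fold at 2000 UMIs per barcode, where Hist1h2ak (3 and 8 UMIs) and Hist1h2an (2 and 5 UMIs) had intervals that reached 0. Hist1h2ak was at 1.55 without barcodes over 2 times the median UMIs. Hist1h2ad was at -1.92 without barcodes with a Cd3 UMI and at -3.25 at 2000 UMIs, there from 29 and 3 UMIs. Members of 1 class in 1 pair of libraries therefore lay on both sides of the median gene, from -3.09 to 2.37.

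Clustered H2B was the core class whose sum lay above the median gene, with 58.7 CPM in WT and 88.1 CPM in Pac1-/- (0.40 [0.34, 0.46]). Of its 14 genes 4 were higher and 2 lower, beside 8.0% and 12.7% of all genes. Hist1h2bc, which gave 55.5% of the class in WT, was at 32.6 and 46.3 CPM (0.32 [0.23, 0.41]), and Hist1h2be was at 11.5 and 19.3 CPM (0.56 [0.42, 0.71]). The higher genes were Hist2h2bb, at 2.49 and 7.13 CPM (1.33), Hist1h2bg, at 1.10 and 2.67 CPM (1.10), Hist1h2bn, at 0.458 and 1.10 CPM (1.08), and Hist3h2ba, at 3.13 and 5.42 CPM (0.61). Hist1h2br was lower, at 2.77 CPM in WT and 0.891 CPM in Pac1-/- (-1.82 [-2.30, -1.35]), as was Hist1h2bp, with 18 UMIs in WT and 4 in Pac1-/- (-2.45 [-4.47, -0.85]). Hist1h2bp had 6 UMIs in WT and none in Pac1-/- at 2000 UMIs per barcode, and without barcodes over 2 times the median UMIs the ratio of Hist1h2bn was 1.8.

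The sums of clustered H3 and H4 stood close to the median gene although single genes did not. H3 was at 40.4 CPM in WT and 44.4 CPM in Pac1-/- (-0.05 [-0.13, 0.04]). Of its 9 genes 3 were higher and 2 lower, beside 8.0% and 12.7% of all genes. Hist1h3a, which gave 48.2% of the class in WT, was at 19.5 and 20.8 CPM (-0.09 [-0.21, 0.03]). Hist1h3e was higher, from 5.97 to 12.2 CPM (0.84 [0.65, 1.03]), while Hist1h3f went from 8.94 to 4.85 CPM (-1.07 [-1.28, -0.85]). Their transcripts end in the same sequence: every 50-base window at the end of either one also lies in the other. Hist2h3b was lower, at 3.15 and 1.44 CPM (-1.31), and Hist2h3c1 (0.550 and 1.27 CPM, 1.02) and Hist1h3i (0.348 and 0.977 CPM, 1.30) were higher. Hist2h3c1 had a ratio of 0.72 [-0.09, 1.59] without barcodes over 2 times the median UMIs, 0.61 [-0.23, 1.5] without those with a Cd3 UMI and 0.32 at 2000 UMIs per barcode, which ends its call. The interval of Hist1h3i reached 0 at 2000 UMIs, with 3 and 11 UMIs.

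H4 was at 57.7 CPM in WT and 64.5 CPM in Pac1-/- (-0.02 [-0.09, 0.05]). Of its 11 genes 3 were higher and 2 lower, beside 8.0% and 12.7% of all genes. Hist1h4d, the leading gene in Pac1-/-, was at 9.80 and 15.3 CPM (0.46 [0.31, 0.62]), and Hist2h4 at 8.87 and 10.7 CPM (0.08 [-0.09, 0.26]). Hist1h4c was higher, from 2.71 to 6.98 CPM (1.18 [0.90, 1.46]), and so was Hist4h4, from 4.54 to 8.21 CPM (0.67 [0.45, 0.90]). Hist1h4m had no UMI in WT and 33 in Pac1-/-, so it passed the limit of 20 UMIs through Pac1-/- alone. Against the limit of 3 counts that a count of 0 allows in a library, and with its 33 UMIs taken as exact, it was at least 10.3-fold higher by CPM before the shift was subtracted. The counting interval of its log2 ratio, which covers the error of both counts, starts lower, at 2.98 before that subtraction and at 2.8 after it. Its transcript end is shared in full with Hist1h4n, which had 76 and 68 UMIs. Hist1h4h, at 13.2 and 6.38 CPM (-1.24 [-1.42, -1.05]), and Hist1h4a, at 11.1 and 7.78 CPM (-0.69 [-0.87, -0.51]), were lower. Hist4h4 was within the fold without barcodes over 2 times the median UMIs (0.47), without those with a Cd3 UMI (0.54) and at 2000 UMIs per barcode (0.53), where Hist1h4a (-0.47) was too and Hist1h4c was at 0.75. In Pac1-/- the H4 genes thus had another order, with Hist1h4h first in WT and Hist1h4d first in Pac1-/-.

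**Figure D2:**
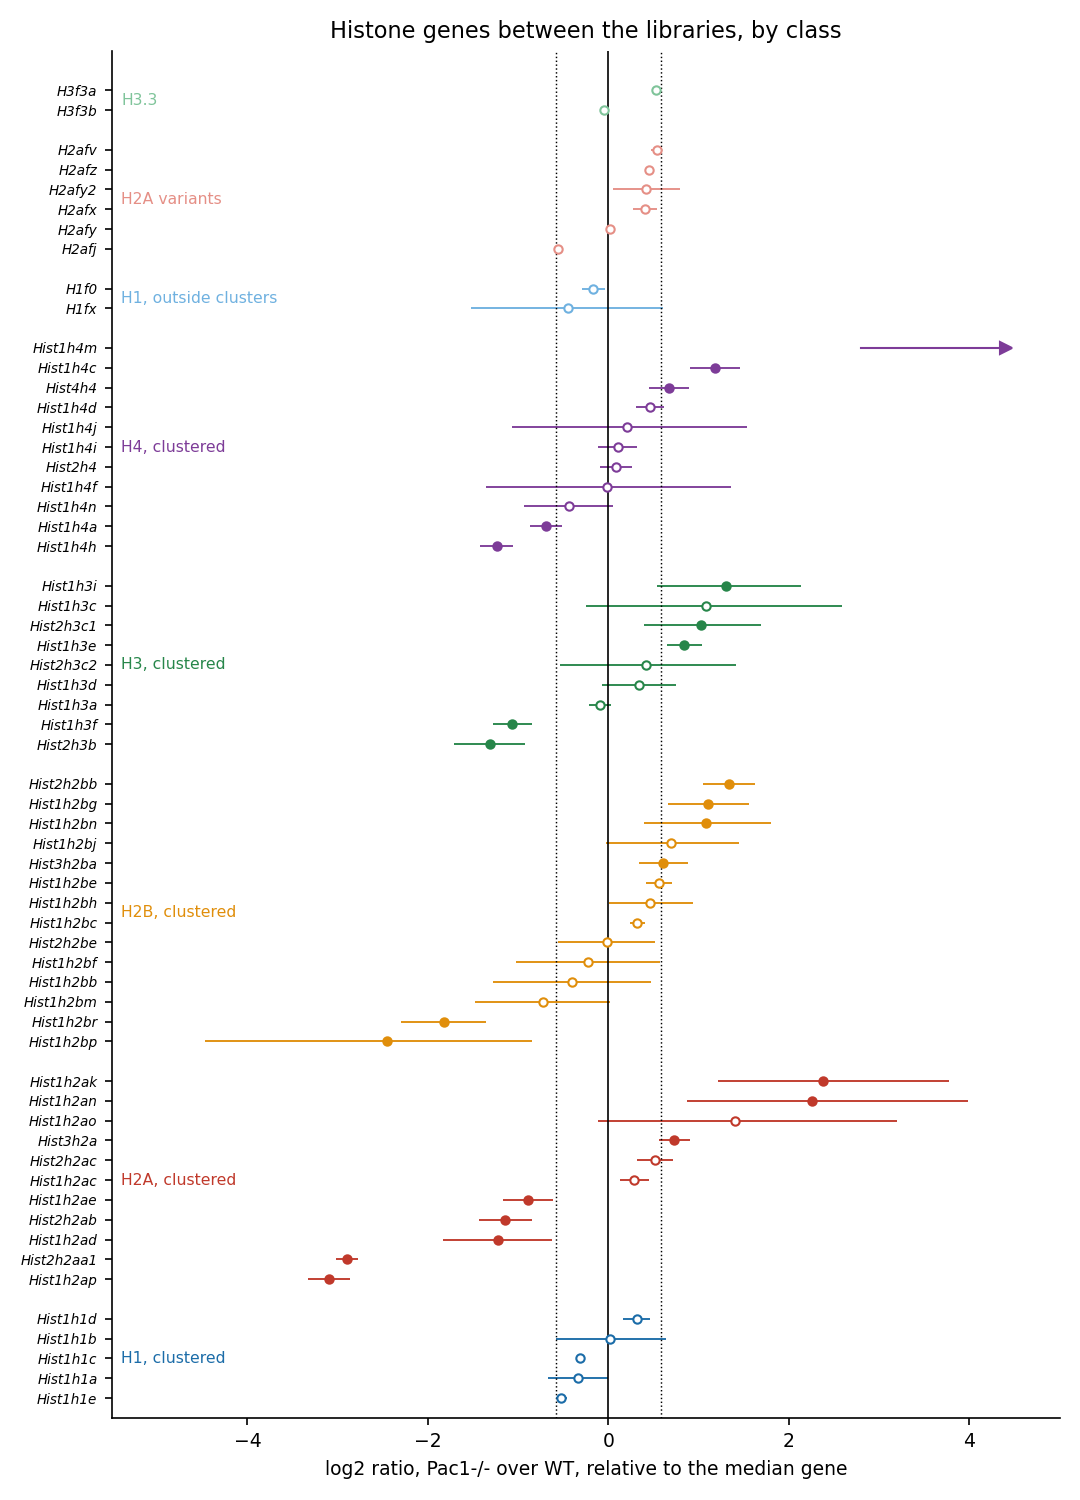
Log2 ratio of Pac1-/- over WT, relative to the median gene, for each histone gene, grouped by class. Points are genes, filled where past the fold, bars are exact 95% counting intervals, the dotted lines mark 1.5-fold and the arrow is the open interval of Hist1h4m. The 10 genes outside the clusters lie between -0.56 and 0.54, and the core classes reach from -3.09 to 2.37 besides Hist1h4m, whose interval starts at 2.8.

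Summed over all 45 clustered core genes, the level was 287 CPM in WT and 257 CPM in Pac1-/- (-0.34 [-0.37, -0.31]), while the median gene of the 45 had a ratio of 0.32 and 27 of the 45 lay above the median gene of all genes. The negative ratio of the sum rested on Hist2h2aa1, without which the other 44 stood at 214 and 246 CPM (0.01 [-0.02, 0.05]). Without Hist1h2ap alone, tried after seeing the data, the ratio was -0.24 [-0.28, -0.21]. Without both, the remaining 43 stood at 192 CPM in WT and 243 CPM in Pac1-/- (0.15). In summed counts, fewer cells that express a gene and less RNA per cell cannot be told apart.

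The core genes were also divided by how unique their transcript ends are. The 50-base windows in the last 300 bases of each gene's annotated transcripts were compared with the transcripts of all other genes in the authors' gene table. For 16 core genes at most 10% of these windows also occurred in another gene, for 17 genes at least 50% did, and 12 lay between. The 16 genes with near-unique ends stood at 101 CPM in WT and 155 CPM in Pac1-/- (0.43 [0.38, 0.47]). Of these 16, 15 lay above the median gene, 5 were past the fold and higher, none was lower, and the exception, Hist2h2be, was at -0.02. Over all genes 8.0% were higher and 12.7% lower.

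The 17 genes with shared ends stood at 134 CPM in WT and 46.7 CPM in Pac1-/- (-1.70 [-1.77, -1.64]), 5 of them higher and 7 lower, beside 8.0% and 12.7% of all genes. Their median size of ratio, without sign, was 1.24, against 0.44 for the 16 genes with near-unique ends. The latter also had more UMIs, with a median of 634.5 per gene against 108, and so less counting error. Among genes with at least 100 UMIs, a limit added after seeing the data, the medians were 1.24 over 9 genes with shared ends and 0.46 over 14 with near-unique ends. Of the 5 higher genes with shared ends, Hist1h2an, Hist1h3i and Hist1h4m passed the limit of 20 UMIs through Pac1-/- only. Without Hist2h2aa1 and Hist1h2ap, the other 15 stood at 39.2 and 32.7 CPM (-0.45 [-0.54, -0.36]). The 12 genes in between stood at 52.0 and 56.0 CPM (-0.08), 3 higher and 4 lower. Hist2h2aa1 shared all of its windows with Hist2h2aa2, a near-identical copy that had 0 UMIs in WT and 2 in Pac1-/-, and Hist1h2ap shared all of its windows with Hist1h2ao, with 5 and 16 UMIs. Cell Ranger counts reads that map confidently to 1 gene, so the values of genes with shared ends are uncertain as single-gene levels. The annotations of Hist3h2a with Trim17 and of Hist2h2bb with Gm42743 overlap on the same strand, which makes these values uncertain too. Whether this handling differed between the libraries was not tested.

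**Figure D3:**
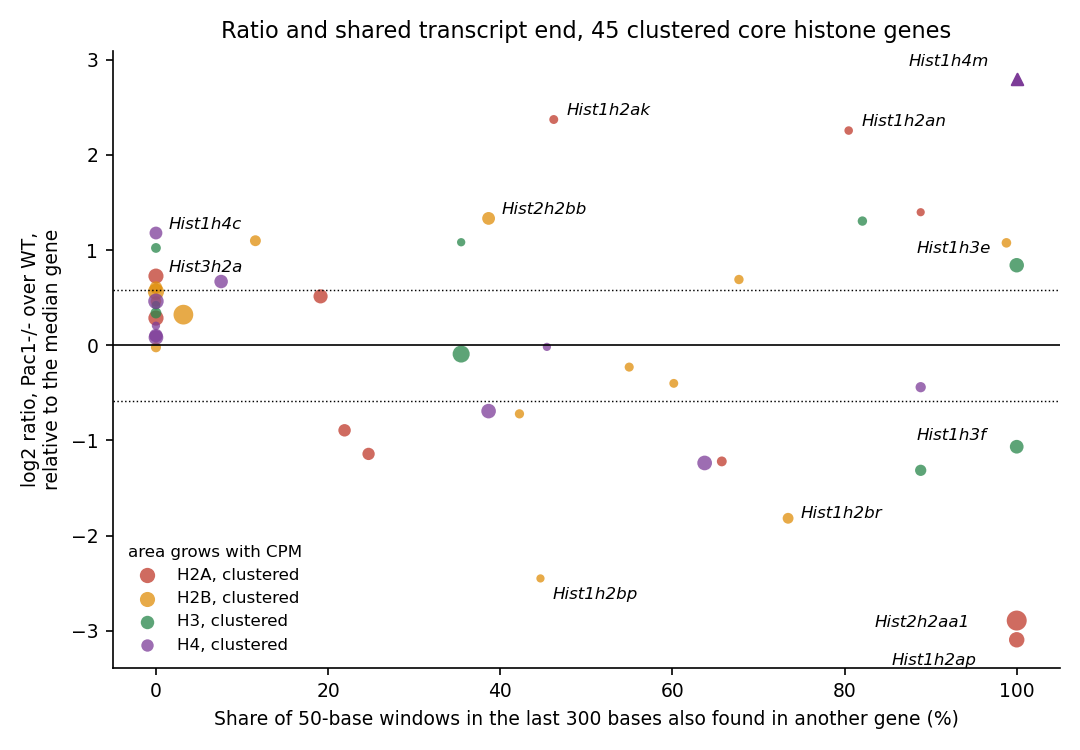
Log2 ratio of Pac1-/- over WT relative to the median gene (vertical) against the percent of 50-base windows at a core gene's transcript end that occur in another gene (horizontal). Points are the 45 clustered core genes, with an area that grows with CPM, the dotted lines mark 1.5-fold, and the triangle is the lower limit of Hist1h4m. The 16 genes at 10% or less lie between -0.02 and 1.18, and the 17 genes at 50% or more between -3.09 and 2.26 besides Hist1h4m, whose interval starts at 2.8.

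The core genes were also divided by how far their transcripts run past the stem-loop. The 15 core genes whose longest transcript stops within 60 bases of the stem-loop stood at 139 CPM in WT and 56.3 CPM in Pac1-/- (-1.48 [-1.54, -1.43]). Of these 1 was higher and 5 lower, beside 8.0% and 12.7% of all genes. The 20 genes whose transcript runs further stood at 99.9 and 138 CPM (0.28 [0.23, 0.33]), with 7 higher and 3 lower. With the clustered H1 genes whose transcripts run that far, 23 genes stood at 351 and 363 CPM, and the sign turned (-0.13 [-0.16, -0.11]). The 10 core genes with no stem-loop in the annotation stood at 48.2 and 62.9 CPM (0.20 [0.13, 0.27]), with 5 higher and 3 lower. Hist2h2aa1 and Hist1h2ap both belong to the first group, where the transcript of Hist1h2ap stops 3 bases after the hairpin. Without these 2 the other 13 stood at 44.3 and 42.3 CPM (-0.25 [-0.33, -0.17]), so most of the first group's shift rested on them. Both also have ends shared in full, and short ends and shared ends cannot be told apart for them.

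Genes of both directions lay in each part of the clusters, beside 8.0% higher and 12.7% lower over all genes. The Hist1 cluster forms 2 blocks on chromosome 13. The 15 members of the first block, chr13:21722044-22043676, stood at 35.5 CPM in WT and 18.6 CPM in Pac1-/- (-1.11), with 5 higher and 3 lower. Without Hist1h2ap, the other 14 stood at 13.4 and 15.7 CPM (0.04 [-0.10, 0.18]), so the direction of that sum rested on 1 gene. The 23 members of the second block, chr13:23531050-23764406, stood at 390 and 393 CPM (-0.17), with 3 higher and 5 lower. The 12 clustered members outside Hist1 stood at 116 and 74.1 CPM (-0.82), with 5 higher and 3 lower. Without Hist2h2aa1 the other 11 stood at 43.1 and 63.1 CPM, and the sign of the sum turned (0.36 [0.29, 0.44]).

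Many H2A and H2B genes are arranged head to head and share the stretch between their starts. Among the members 7 such pairs started within 500 bases of each other, and in 4 of the 7 both genes lay on the same side of the median gene. Other gene pairs were not compared, so this count does not show that paired genes move together. Hist1h2ak and Hist1h2bn, 296 bases apart, were both higher (2.37 and 1.08). Hist1h2ap and Hist1h2br, 236 bases apart, were both lower (-3.09 and -1.82). In the pair Hist1h2ae and Hist1h2bg, 176 bases apart, the first was lower (-0.89) and the second higher (1.10). In the pair Hist1h2an and Hist1h2bp, 243 bases apart, the first was higher (2.26) and the second lower (-2.45).

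Promoter windows from 250 bases before to 50 bases after the start were found in RefSeq (GRCm38.p6) for 44 of the 50 clustered and 9 of the 10 scattered members. Motifs known from histone promoters were searched as exact letters on both strands, and none of the 3 contains another. CCAAT occurred in 84.1% of the clustered windows, in all of those of H2A, H2B, H3 and H1 but in 3 of 10 of those of H4. It occurred in 37.9% of 27025 windows of all genes. TATAAA occurred in 61.4% of the clustered windows and in 14.2% of all windows. The octamer ATTTGCAT occurred in 18.2% of the clustered windows, 4 of 10 for H2A and 4 of 12 for H2B and none for H3, H4 or H1, and in 1.75% of all windows. Among the 9 scattered members, CCAAT occurred in 6, and TATAAA and the octamer in H3f3b alone.

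Windows are printed for the gene with most UMIs (H3f3b, chr11:116024455-116024754, minus strand) and for the abundant gene with a large ratio (Hist2h2aa1, chr3:96245247-96245546, plus strand). Those of Hist1h2ak (chr13:21753863-21754162, minus strand), which covers most of the stretch shared with Hist1h2bn, and of Hist1h2ae (chr13:23571171-23571470, minus strand), shared with Hist1h2bg, stand for a pair that moved together and a pair that moved apart. Each is written 5′ to 3′ on the gene's strand, with motif matches on either strand in capitals.
H3f3b: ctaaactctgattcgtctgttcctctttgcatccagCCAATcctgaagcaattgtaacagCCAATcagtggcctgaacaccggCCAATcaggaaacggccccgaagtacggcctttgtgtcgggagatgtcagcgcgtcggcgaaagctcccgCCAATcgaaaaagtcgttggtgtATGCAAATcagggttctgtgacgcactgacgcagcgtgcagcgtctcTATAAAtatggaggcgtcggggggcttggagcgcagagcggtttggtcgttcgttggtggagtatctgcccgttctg
Hist2h2aa1: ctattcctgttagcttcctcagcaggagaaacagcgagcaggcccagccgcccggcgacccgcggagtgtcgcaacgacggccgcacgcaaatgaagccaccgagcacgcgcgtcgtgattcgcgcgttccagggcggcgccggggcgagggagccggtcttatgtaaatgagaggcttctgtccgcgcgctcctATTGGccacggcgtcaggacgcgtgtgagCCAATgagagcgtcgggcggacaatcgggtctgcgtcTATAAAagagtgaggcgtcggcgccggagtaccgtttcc
Hist1h2ak: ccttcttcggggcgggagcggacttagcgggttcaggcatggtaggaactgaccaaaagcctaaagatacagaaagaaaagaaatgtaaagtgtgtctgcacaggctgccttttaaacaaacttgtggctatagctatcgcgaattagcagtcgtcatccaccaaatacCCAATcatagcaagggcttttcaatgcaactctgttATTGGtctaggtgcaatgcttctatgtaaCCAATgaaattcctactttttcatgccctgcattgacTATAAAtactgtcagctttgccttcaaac
Hist1h2ae: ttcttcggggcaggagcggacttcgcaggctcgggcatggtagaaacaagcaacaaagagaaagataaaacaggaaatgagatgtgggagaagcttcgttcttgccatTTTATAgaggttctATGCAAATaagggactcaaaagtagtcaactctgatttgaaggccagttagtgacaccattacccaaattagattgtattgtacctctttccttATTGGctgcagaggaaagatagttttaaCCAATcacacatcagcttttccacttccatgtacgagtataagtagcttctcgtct

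The windows of Hist1h2ak and Hist2h2aa1 held CCAAT and TATAAA, and that of Hist1h2ae held these and the octamer. The windows of Hist1h2an and Hist1h2bp, which moved apart, lacked the octamer. That of Hist1h2ac, on the same side as Hist1h2bc, held it, and for Hist1h2bc no window was found. Whether the motifs relate to the directions of the pairs was not tested. H3f3b held all 3 motifs, with 4 matches to CCAAT. A match is a description of the window and shows no binding.

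The histone genes were next compared between barcodes with and without transcripts of cell division genes. A barcode was placed in the cycling class when it held UMIs of at least 3 genes of a list of 16 S-phase genes or at least 3 of a list of 20 G2/M genes, neither of which holds a histone gene. This class took 59 barcodes in WT (0.703% [0.535, 0.906]) and 123 in Pac1-/- (1.74% [1.44, 2.07]). It followed depth closely, with median UMIs of 21508 and 23603 against 4173 and 5542 in the other barcodes. At 2000 UMIs per barcode 2 of 7480 barcodes remained in WT and 12 of 6470 in Pac1-/-.

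The clustered core genes were 1.10-fold higher in the cycling class in WT [1.0, 1.21] and 1.14-fold higher in Pac1-/- [1.06, 1.21]. These folds depended on the barcodes taken. With at least 2 list genes they were 0.973 and 1.04. Without barcodes over 2 times the median UMIs they were 1.77 and 1.98, from only 6 cycling barcodes in WT and 29 in Pac1-/-. Hist1h1b, the linker histone H1 gene tied to dividing cells, was 9.48-fold higher in the class in WT [4.0, 20.2], with 9 of its 43 UMIs there, and 10.0-fold higher in Pac1-/- [5.45, 18.0], with 20 of 53. One barcode held 11 of these 20, and without it, a step chosen after seeing the data, the fold was 4.53 [1.90, 9.67], while without the WT barcode with the most UMIs, which lay outside the class, the fold in WT was 15.3 [6.19, 35.0]. Hist1h3c was 43.0-fold higher in Pac1-/- [14.4, 154], with 13 of its 18 UMIs in the class, and 7 of these 13 came from 1 barcode, without which it was 19.9-fold higher [5.06, 82.4], while in WT 1 of 7 was (5.97-fold [0.13, 49.2]). Hist1h2bf was 7.79-fold higher in WT [2.31, 20.9], with 5 of its 28 UMIs in the class, but at 1.23-fold in Pac1-/- [0.141, 4.88], with 2 of 29. By contrast H3f3b was at 1.03-fold and 0.96-fold, and Hist1h1c at 0.95-fold and 0.86-fold.

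Since the class followed depth, cycling barcodes that also had at least 10 list UMIs per 10000 were taken on their own, a definition chosen after seeing the data. It left 4 barcodes in WT and 16 in Pac1-/-, with median UMIs of 6197.5 and 7201.5, against 4186.5 and 5577 in the whole libraries. In these the core genes were 2.63-fold higher in WT [1.56, 4.15] and 2.41-fold higher in Pac1-/- [1.89, 3.02]. They held 9 of the 43 UMIs of Hist1h1b in WT and 16 of 53 in Pac1-/-, and 11 of the 18 UMIs of Hist1h3c in Pac1-/-. H2afz was 2.40-fold higher in WT [1.40, 3.85] and 3.98-fold higher in Pac1-/- [3.47, 4.55]. H2afv was 4.90-fold higher in Pac1-/- [3.73, 6.33], and in WT it had 1 UMI there. H3f3b was at 1.08-fold in WT, from 4 barcodes, and at 0.67-fold in Pac1-/-. Of these barcodes 3 of 4 and 15 of 16 held a UMI of Gata3 or Il1rl1, and 1 and 4 held one of a myeloid or B cell marker. The myeloid marker Lyz2 had 1 and 38 UMIs in these barcodes, and it stood at 55 and 103 CPM in barcodes under 500 genes, against 1.23 and 5.61 CPM in the retained ones. Doublets were not removed, and the part of other cells in these values was not tested.

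Single barcodes show how unevenly some of these genes were spread. One WT barcode held 13 UMIs of Hist1h1b and lay outside the cycling class, with UMIs of 1 gene of the S-phase list and 2 of the G2/M list. One Pac1-/- barcode held 11 and lay in the class, with 11 and 8 list genes, although a UMI of it was found in 0.214% and 0.452% of all barcodes. One Pac1-/- barcode held 7 UMIs of Hist1h3c and 1 held 32 UMIs of H2afx, where no WT barcode exceeded 1 and 9. The barcode with 32 held no gene of either list. By contrast no barcode held more than 5 UMIs of Hist1h3a, which had a UMI in 10.6% of the WT barcodes and in 12.8% of those of Pac1-/-.

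**Figure D4:**
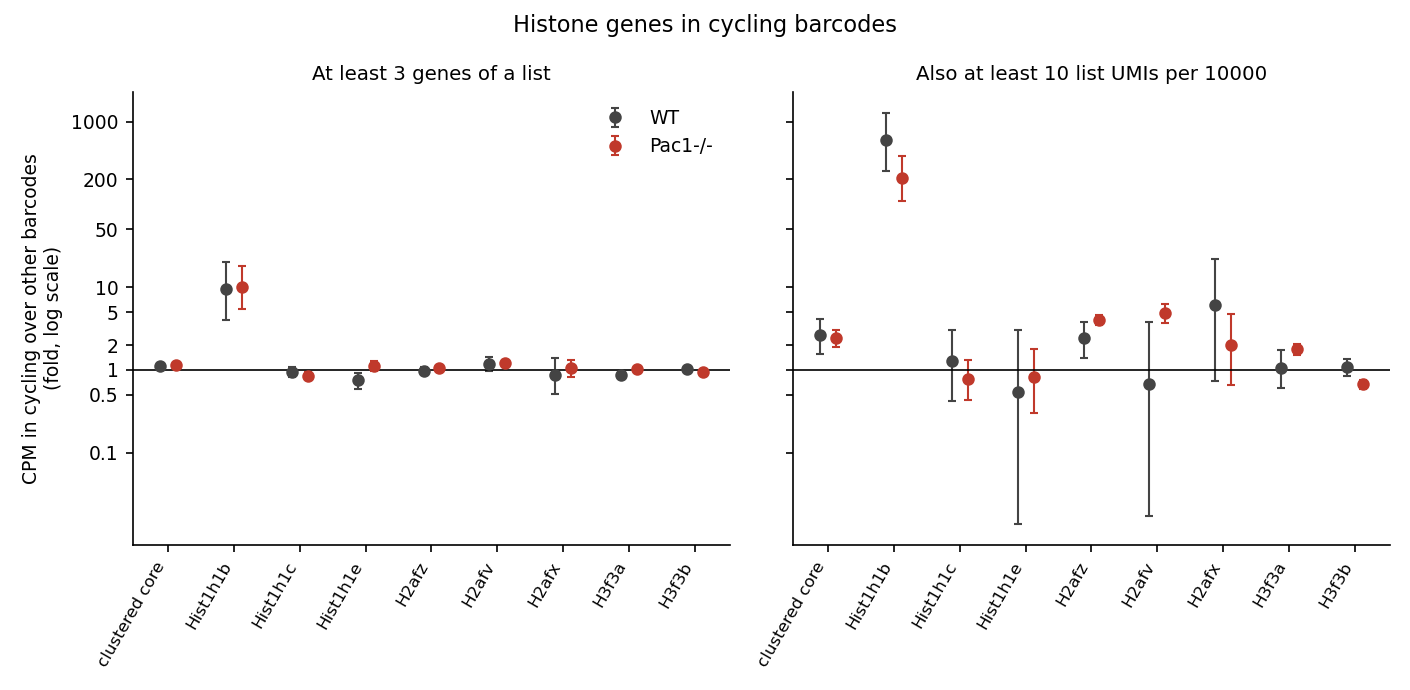
Level of histone genes in cycling barcodes over that in the other barcodes of the same library (fold, log scale), for barcodes with at least 3 genes of a list (left) and those that also had at least 10 list UMIs per 10000 (right). Points are WT (grey) and Pac1-/- (red) and bars are 95% counting intervals, and of the 8 genes and the core sum drawn, which leave out Hist1h3c, Hist1h1b stands highest in both panels, at 9.48-fold in WT and 10.0-fold in Pac1-/- on the left.

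Barcodes with core histone UMIs far outnumbered the cycling class of 59 WT and 123 Pac1-/- barcodes, so most of them could not have been in it. At least 3 UMIs of clustered core genes were found in 2081 WT barcodes (24.8%) and 2014 Pac1-/- barcodes (28.4%), and 2.40% and 4.92% of these were in the cycling class. They were deep barcodes, with median UMIs of 10179 and 11188.5 against 3756 and 4930 for the others. At 2000 UMIs per barcode the shares with at least 3 were 3.53% and 2.77%. Within the cycling class the shares with at least 3 were 84.7% in WT and 80.5% in Pac1-/- at full depth. At 2000 UMIs they were 5.08% (3 of 59 barcodes) and 1.67% (2 of 120), too few to compare. At least 1 core UMI was present in 39.5% of the WT barcodes and 37.5% of those of Pac1-/- at that depth, against 63.9% and 67.9% at full depth. Every cell carries histone RNA, so no cell type in the sort could serve as a blank. Barcodes with under 500 detected genes, in which the share of free RNA was not measured, had core levels of 241 CPM in WT and 213 CPM in Pac1-/-, below those of the retained barcodes by 0.25 and 0.27 on the log2 scale.

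Histone genes also differed between barcodes with and without a cytokine UMI, a split added after seeing the data. Il5 and Il13 encode the main effector cytokines of ILC2s. A UMI of either was found in 5041 of 8394 WT barcodes and in 3318 of 7087 Pac1-/- barcodes. Such a UMI does not show that the cell expressed the gene. Barcodes under 500 genes held Il5 at 669 CPM in WT and 391 CPM in Pac1-/-, where the retained ones held 718 and 405 CPM, and Il13 at 163 and 99.3 CPM, where the retained ones held 190.3 and 149 CPM. Of barcodes with a B cell or myeloid UMI and none of Gata3 or Il1rl1, 3 of 14 in WT (21.4% [4.66, 50.8], median 1930.5 UMIs) and 1 of 15 in Pac1-/- (6.67% [0.169, 31.9], median 3562) held Il5 or Il13. Of all barcodes without a Gata3 or Il1rl1 UMI, 74 of 201 in WT (36.8%, median 1303) and 41 of 173 in Pac1-/- (23.7%, median 1077) held Il5 or Il13. With a Gata3 or Il1rl1 UMI the shares were 60.6% (median 4243) and 47.4% (median 5638). The part of free RNA in the split was not tested. H3f3b was 1.51-fold higher in these barcodes in WT [1.49, 1.53] and 1.70-fold higher in Pac1-/- [1.68, 1.72]. H2afz was 1.59-fold higher in WT [1.53, 1.66] and 1.58-fold higher in Pac1-/- [1.54, 1.63]. Hist1h1c was 1.80-fold higher in WT [1.70, 1.91] and 1.77-fold higher in Pac1-/- [1.68, 1.86]. Their closest relatives were nearer to 1. H3f3a was at 1.07-fold and 1.08-fold, H2afv at 0.94-fold and 1.0-fold, and Hist1h1e at 1.08-fold and 1.08-fold.

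Hist1h1d and H2afj were lower in barcodes with a cytokine UMI, at 0.778-fold and 0.872-fold for Hist1h1d and 0.916-fold and 0.946-fold for H2afj. The clustered core genes were at 0.958-fold in both libraries. Barcodes with a cytokine UMI were deeper, with median UMIs of 5341 against 3497 in WT and 7515 against 4852 in Pac1-/-. At 2000 UMIs per barcode H3f3b was 1.58-fold higher in WT and 1.92-fold higher in Pac1-/-, H2afz 1.72-fold and 2.02-fold, and Hist1h1c 2.04-fold and 2.24-fold, while the core genes were at 0.976-fold and 0.962-fold. H2afj was then at 0.878-fold and 0.879-fold, Hist1h1d at 0.639-fold [0.464, 0.874] and 0.923-fold [0.647, 1.3], and Hist1h1e at 1.2-fold [1.07, 1.34] and 0.971-fold [0.821, 1.14].

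**Figure D5:**
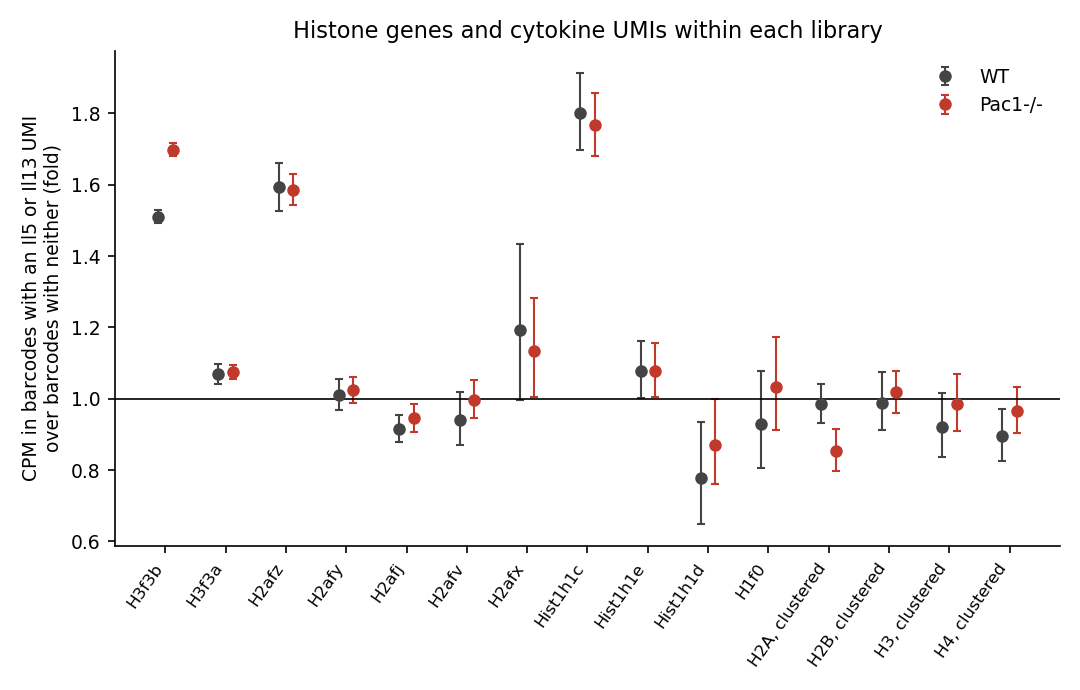
Level of histone genes in barcodes with an Il5 or Il13 UMI over that in barcodes with neither (fold, linear scale from 0.6). Points are genes or summed clustered classes in WT (grey) and Pac1-/- (red) and bars are 95% counting intervals, and H3f3b, H2afz and Hist1h1c lie above 1.5-fold in both libraries.

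The machinery that makes and places histones was counted by the same rule, beside the 8.0% higher and 12.7% lower over all genes. Of 12 tested genes for histone transcription and 3′ processing, 2 were higher, none was lower and the median ratio was 0.01, where that of all genes is 0 by construction. Slbp, which binds the stem-loop, was at 85.7 CPM in WT and 73.8 CPM in Pac1-/- (-0.40 [-0.46, -0.34]). Lsm10, a subunit of the U7 particle that guides the cut after the stem-loop, was higher, at 3.17 and 7.85 CPM (1.12 [0.87, 1.39]), and its partner Lsm11 was at 6.49 and 8.74 CPM (0.25). Lsm1, part of a ring that helps degrade histone mRNA, was higher, at 16.3 and 30.1 CPM (0.70 [0.58, 0.82]), but within the fold at 2000 UMIs per barcode (0.46). Npat, the coactivator of clustered genes, was at 17.7 and 17.2 CPM (-0.23).

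Among 8 tested chaperones that supply replicating DNA, 1 was past the fold. Nasp, which holds soluble H3 and H4, was lower, at 105 CPM in WT and 72.0 CPM in Pac1-/- (-0.73 [-0.79, -0.67]). The CAF-1 subunits Chaf1a (1.61 and 1.77 CPM) and Chaf1b (4.07 and 5.79 CPM) had few UMIs. None of the 11 chaperones and loaders of variants was past the fold. Hira, which lays down H3.3 at active genes, was at 16.1 and 16.2 CPM (-0.17), Atrx at 429 and 484 CPM (-0.01), and Znhit1, of the complex that loads H2A.Z, had the lowest ratio of the 11 at -0.49. The centromeric H3 gene Cenpa was at 15.0 and 20.9 CPM (0.29) and its loader Hjurp at 34.0 and 41.9 CPM (0.12).

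Of the S-phase list used for the cycling class, 14 genes were tested, 2 higher and 1 lower, where over all genes 8.0% were higher and 12.7% lower. Pclaf went from 4 UMIs in WT to 48 in Pac1-/- (3.3 [1.86, 5.24]), Rrm2 from 0.971 to 1.87 CPM (0.76), and Clspn from 5.48 to 3.41 CPM (-0.87). Rrm2 was within the fold without barcodes over 2 times the median UMIs (0.25), without those with a Cd3 UMI (0.36), without cycling barcodes (0.50) and at 2000 UMIs per barcode, where its sign turned (-0.12). Pclaf was at 1.78 without the barcodes over 2 times the median, and its interval reached 0 without cycling barcodes (3 and 11 UMIs) and at 2000 UMIs, where Clspn was at -1.57. Of the G2/M list 18 were tested, 9 higher and 1 lower beside the same shares over all genes, with a median of 0.50. These 9 included Cdca8, with 28 and 134 UMIs (1.98), and Ube2c, with 5 and 44 UMIs (2.86), while Mki67 was at 5.0 and 5.57 CPM (-0.03) and Top2a at 9.67 and 8.91 CPM (-0.30). Among the higher list genes, Pclaf, Ube2c and Ccnb2 passed the limit of 20 UMIs through Pac1-/- only. Hmmr stayed below 20 UMIs in each library. Of the 16 pathway and cell-cycle list genes past the fold, 10 still met the rule without barcodes over 2 times the median UMIs, 8 without cycling barcodes and 6 at 2000 UMIs per barcode, Cdca8 and Ube2c each time among them. Without cycling barcodes 2 of the 16 changed direction. The higher G2/M genes Ccnb2, Cenpf, Cenpe, Tpx2, Kif11 and Hmmr then no longer met the rule. The cycling class was defined by UMIs of the S-phase and G2/M lists, so its removal takes out UMIs of these list genes by design. That setting therefore cannot check the calls of the S-phase and G2/M genes.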

How the data were processed

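The authors sorted live Lineage- CD90.2+ ST2+ Sca-1+ lung cells and loaded about 13000 per genotype on a droplet kit (version 3.1) that reads transcript 3′ ends. The deposited files hold raw UMI counts per gene and barcode, made by the authors with Cell Ranger against mm10. The study's methods and the submitters' processing notes name Cell Ranger 6.1.1 and the file headers 4.0.0, and the annotation release is not given in the sources used here. All barcodes of a library were pooled from several mice, so that each genotype was 1 sample.

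Here, barcodes with at least 500 genes and at most 10% mitochondrial UMIs were kept and no doublets were removed. UMIs were summed per library and scaled to CPM, without a pseudocount. Intervals at 95% (exact Poisson for levels, conditional binomial for ratios, Clopper-Pearson for shares) cover counting error only, since UMIs of 1 library are not replicates. Counts were joined and tested on simulated data in Python 3.11.15 with numpy 2.4.6, pandas 2.3.3 and scipy 1.17.1, and figures drawn with matplotlib 3.10.9. Stem-loops and shared ends were searched in GENCODE vM21 transcripts on GRCm38 and motifs in RefSeq promoters. Members, lists and tests were chosen with earlier results of these data known. Named genes are the 3 most abundant of each class, those past 1.5-fold, all linker and variant genes, and members with a high cycling ratio. Alternatives were other barcode filters, depths, list limits and scalings. The pathway gene Supt16h was not analysed here.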

Additional observations from a re-analysis of the deposited data

How the results depend on the processing

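No paired analysis was possible because each genotype had 1 library and no replicate, and for the same reason no replicate could be left out. Depth limits the rare genes: those below 50 UMIs rest on few barcodes, and no alternative here measures the spread between mice. Values in this paragraph are log2 ratios of Pac1-/- over WT as counted, before the shift of 0.18 was subtracted, unless called relative. Of 88 recomputed values of the class sums, cycling shares and high-histone shares, 48 stayed within the counting interval of the reported one, 37 moved beyond it and 3 changed sign. Not all sign changes named below are among these 88 values. The sum of the clustered core genes was -0.16 as counted and -0.34 relative, and changed sign to 0.20 without Hist2h2aa1, to 0.34 without Hist2h2aa1 and Hist1h2ap and to 0.61 over the genes with at most 10% shared ends (the last 2 chosen after seeing the data). Clustered H1 was -0.15 as counted, -0.34 relative, -0.20 without its top gene and -0.24 without barcodes with a Cd3 UMI. The H2A variants were 0.32 as counted, 0.13 relative and 0.088 without their top gene. H3.3 was 0.24 as counted, 0.059 relative, 0.71 without H3f3b, 0.17 without barcodes with a Cd3 UMI, and 0.22 both without barcodes over 2 times the median UMIs and at 2000 UMIs per barcode. Relative to the median gene, clustered H3 (-0.047), clustered H4 (-0.023), the H1 genes outside the clusters (-0.17), and among single genes H3f3b (-0.053), Hist1h3a (-0.092), H1f0 (-0.17), Hist2h2be (-0.021), Hist1h4f (-0.017) and the antisense H3f3aos (-0.093) changed sign. The cycling share in WT was 3.81% with at least 2 list genes, 0.143% with at least 4, 0.0910% without barcodes over 2 times the median, 0.0267% at 2000 UMIs, and 0.107% and 0.0477% at 5 and 10 list UMIs per 10000. In Pac1-/- these shares were 6.77%, 0.536%, 0.508%, 0.185%, 0.423% and 0.226%. The fold of the core genes in cycling barcodes was 0.973 in WT and 1.04 in Pac1-/- with at least 2 list genes, 1.77 and 1.98 without barcodes over 2 times the median, 1.77 and 1.65 at 5 and 2.63 and 2.41 at 10 list UMIs per 10000. Barcodes with high core histone counts were 38.5% in WT and 43.4% in Pac1-/- at 2 UMIs, 11.9% and 13.0% at 5 UMIs, and 3.53% and 2.77% at 2000 UMIs per barcode. The cause of these moves was not tested. Over the as counted values run and the relative value reported above, Hist2h2aa1 kept its sign, from -2.89 to -2.62. So did Hist1h2ap, from -3.09 to -2.67, H3f3a, from 0.53 to 0.72, and H2afj, from -0.56 to -0.33. These ranges leave out the ratios relative to each setting's own median gene, where Hist1h2ap was at -3.10 with at least 1000 detected genes. Hist1h4m, at 0 in WT, had no such range. Of the other 44 named genes 6 changed sign: H3f3b, Hist1h3a, H1f0, Hist1h1a, Hist1h1b and H1fx. Hist1h3c and Hist1h2bf, named for their cycling ratio, were not among those recomputed. As counted, 24 of the 60 members were higher and 10 lower, against 13 and 11 relative to the median gene. With each setting's own median gene, an alternative added after seeing the data, 22 of the 24 called members still met the rule without barcodes over 2 times the median UMIs, 22 without barcodes with a Cd3 UMI and 16 at 2000 UMIs, and all 24 under the other 5 barcode settings, with no change of direction.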
